A study of Xenopus laevis with 12 samples.

Results

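The genes described here encode the initiation factors (eIF) and elongation factors (eEF) of cytoplasmic protein synthesis, together with a few regulators whose symbols carry the same prefix. Members were the probe sets annotated with 1 gene whose symbol starts with eif1 to eif6, eef1 or eef2, with 1 probe set kept per symbol, that of the brightest average on the log2(signal + 16) scale. This gave 57 genes from 80 probe sets, out of 7531 named genes on the array, and 51 of the 57 are factors while 6 are regulators.

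Whole-embryo RNA of the frog Xenopus laevis was measured at stage 11.5, late in gastrulation, on a 1-colour Affymetrix array that held 1 embryo each. The labels give 6 embryos that received Nkx2-5 mRNA with GFP mRNA, and 6 that received GFP mRNA alone and serve as the control. Both groups were injected at the 8-cell stage, so the GFP mRNA and the injection are common to them, and the labels name no strain or dose. Nkx2-5 belongs to the homeodomain family of transcription factors and acts in the forming heart, and the comparison asks which transcripts differ when it is supplied early. All embryos carry 1 experiment name and no parentage is labelled, so the p-values reflect only how these embryos varied. In whole embryos, fewer cells of a type and less RNA per cell cannot be told apart.

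Initiation begins when eIF2 brings the initiator tRNA to the small ribosomal subunit. This subunit is bound by eIF3, and eIF1 helps to keep it open for scanning. The eIF4 proteins recognise the cap of the mRNA and unwind its leader. Elongation then alternates between eEF1A, which delivers each aminoacyl-tRNA, and eEF2, which moves the ribosome along. In frogs the egg stores much of this machinery as maternal mRNA and protein, and oocytes use forms of some factors that differ from the somatic ones, eEF1A and eIF4E among them.

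Values below are MAS5 signals, a brightness per probe set on a linear scale, and signals of different probe sets cannot be ranked against each other. Log2 differences are Nkx2-5+GFP minus GFP on the log2(signal + 16) scale, with limma's standard error (SE), and an adjusted p comes from limma after the Benjamini-Hochberg procedure on 15491 probe sets. Calls were made where this p was under 0.05. Median signals of the 12 arrays lay between 305 and 350, and their number limits the precision. For a list of gastrula markers 38 named genes had a probe set, none of them under a mean signal of 50, while foxa2 and krt5.7 had none. Of 5 markers of cells that a gastrula should lack 3 were under 50, and ins.L and ins.S were not. No detection calls were used, so a signal over 50 does not show presence. Of the 38 gastrula markers 8 rose and 3 fell, where 6.38% of all probe sets were called. Among them krt12.4.S differed by 1.26 and mix1.S by -1.29. The part of these differences in the values below was not tested. Of the nkx2-5.S probe sets, one rose, with a log2 difference of 0.77 (limma adjusted p = 0.0431), and the other, at 140.5 ± 24.8 in Nkx2-5+GFP embryos and 93.7 ± 20.7 in GFP embryos (SD, n = 6 each), did not pass (limma adjusted p = 0.0731). The labels do not say whether these probe sets detect the injected mRNA. In Nkx2-5+GFP embryo 6 some of the manufacturer's bacterial hybridisation controls were high. The control probe set BioC-5 gave 1911 in this embryo. It gave 1061 to 1377 in the other 5 Nkx2-5+GFP embryos and 1061 to 1324 in the GFP embryos. A second probe set of the same control, r2-Ec-bioC-5, did not stand apart. Its signal was 1976 in this embryo, 1653 to 1947 in the other Nkx2-5+GFP embryos and 1783 to 2134 in the GFP embryos. The 3' to 5' signal ratio of beta-actin is a measure of RNA quality and labelling. It was 2.68 to 3.33 in Nkx2-5+GFP embryos and 2.81 to 4.27 in GFP embryos. The control probe sets of GAPDH lay further apart. They gave 3114 to 5027 (3') and 110 to 182 (5') in Nkx2-5+GFP embryos, and 2673 to 5550 and 77.5 to 186 in GFP embryos. The fits below used the beta-actin ratio alone as a measure of quality.

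Few translation factor mRNAs passed the test between the groups. Of the 57 genes, 1 rose and 0 fell at an adjusted p under 0.05, which is 1.75% where 6.38% of all probe sets were called, 3.12% higher and 3.26% lower. The gene that rose was eif4b.S, whose product activates the RNA helicase eIF4A. At an unadjusted p under 0.05 stood 14 of the 57, or 24.6%, a share near the 24.3% of all probe sets. The log2 difference was above 0 in 44 of the 57 genes, or 77.2%, while it was above 0 in 47.7% of all probe sets. The median difference was 0.10 over the 57 genes and -0.02 over all probe sets. With quantile normalization 39 genes were above 0, and the median was then 0.09.

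The absolute log2 difference had a median of 0.13 over the 57 genes and exceeded 0.5 in 1 of them, the dim eef1a2.S, while the median over all probe sets was 0.19. The genes were mostly bright, and among probe sets with a mean signal over 1000 the median was 0.13 for the 39 genes and 0.15 for all 4474. For the 39 genes with a mean signal over 1000, the 95% intervals of the log2 difference reached from -0.40 at the lowest to 0.55 at the highest. In the main fit, for the probe set used per gene, changes of 1.5-fold or more upward thus lay outside each of these 39 intervals. Other probe sets of the same genes are not covered by this, such as a second one of eef1a1.S at 0.42 (SE 0.18). Nor are the alternative settings of the fit, in which the difference of eif4g1.S reached 0.38. Of these 39 genes, 34 were above 0, where 50.3% of all 4474 probe sets of that brightness were. The signals of the groups did not overlap in 1 of the 57 genes, eif2b3.L, which was lower, while 1.57% of all probe sets were higher without overlap and 1.42% lower.

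**Figure D1:**
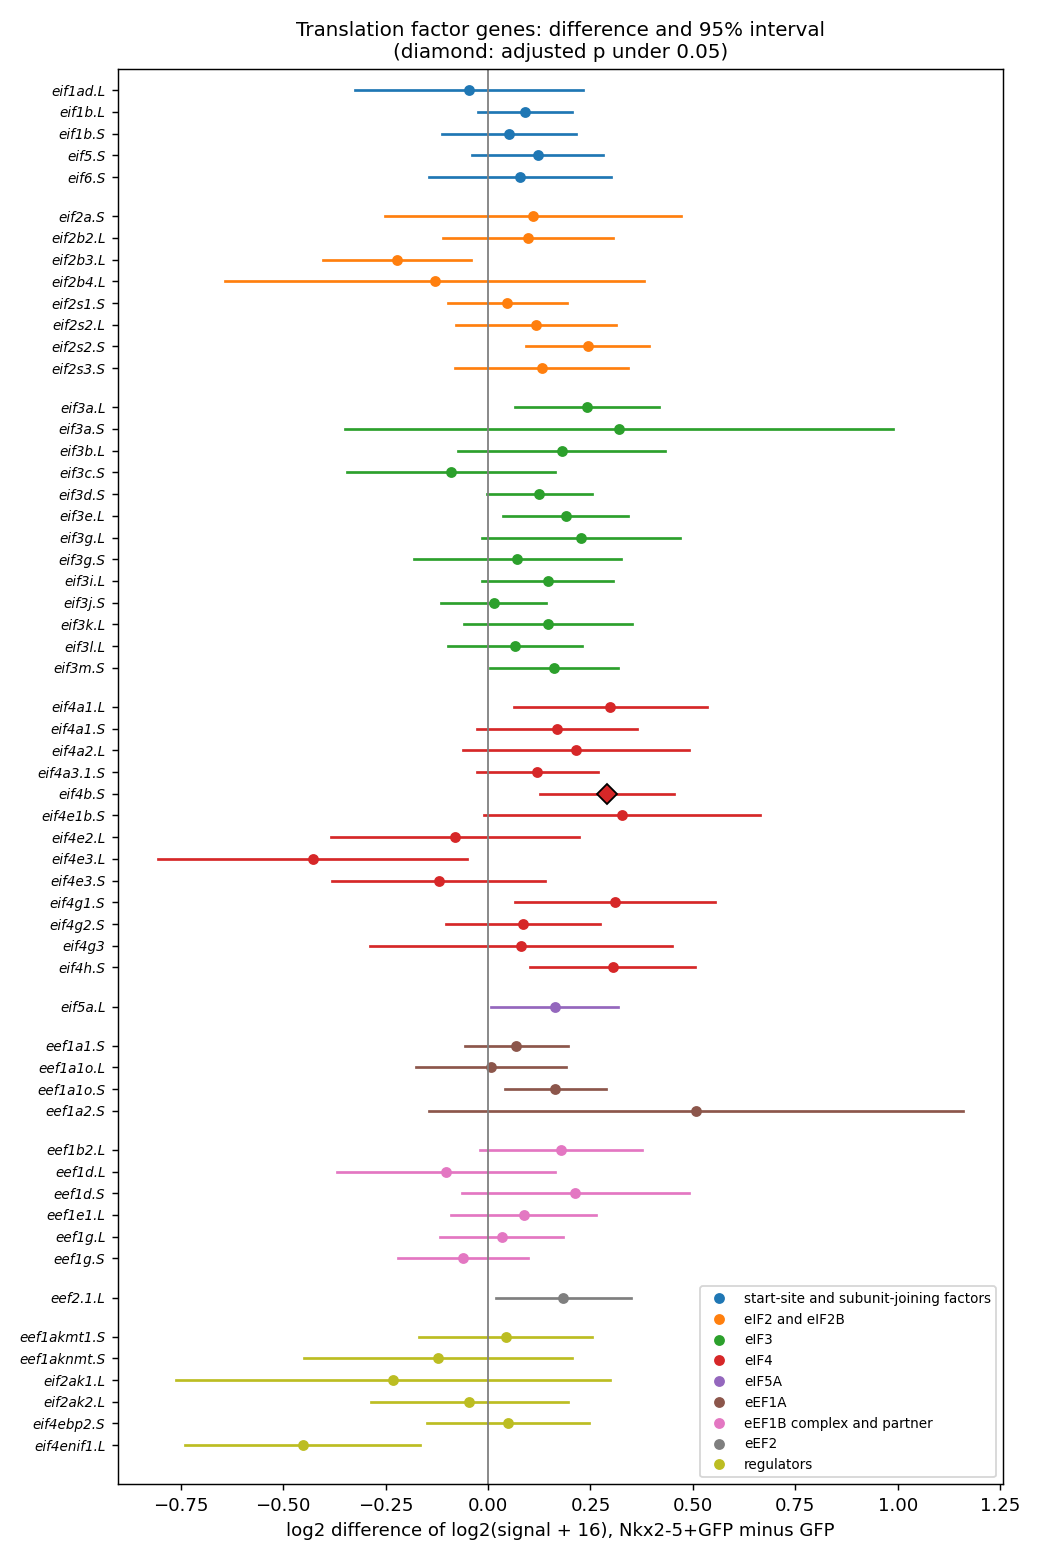
Log2 difference of each of the 57 genes, Nkx2-5+GFP minus GFP, on the horizontal axis, with its 95% interval from limma and 1 row per gene, coloured by functional group. Most points lie a little to the right of 0, and the diamond marks eif4b.S, the gene called at an adjusted p under 0.05.

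The eIF4 proteins held the gene that rose. They recognise the cap (eIF4E), scaffold the complex (eIF4G) and unwind the mRNA leader (eIF4A with its activators eIF4B and eIF4H). Of 13 measured genes, 1 rose, 0 fell and 12 did not pass, with a median log2 difference of 0.17 and 10 above 0, of which eif4g2.S turned to -0.01 with quantile normalization.

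For eif4b.S the lowest, median and highest signals were 9519, 9892 and 11717 in Nkx2-5+GFP embryos, against 7281, 8240 and 9626 in GFP embryos. A single crossing kept the groups from separating, since GFP embryo 5 stood above Nkx2-5+GFP embryo 3. The means were 10232 ± 815 and 8380 ± 848 in the Nkx2-5+GFP and GFP embryos (SD, n = 6 each), a 1.22-fold rise. The log2 difference was 0.29 with an SE of 0.08 (limma adjusted p = 0.0387). The exact permutation test gave p = 0.00433. For single genes, here and below, this is a second test of the same values, not adjusted for the number of genes. The array holds other probe sets for eif4b.S. One of them differed by 0.29 without passing (limma adjusted p = 0.147), and the dimmest differed by -0.19, the opposite sign (limma adjusted p = 0.515). The call for eif4b.S was lost without any 1 of GFP embryos 1, 2, 3, 4 and 6 or Nkx2-5+GFP embryos 1, 2, 4 and 6. It was also lost with quantile normalization, without the intensity trend and with the beta-actin ratio in the fit. When the 3 probe sets of eif4b.S were averaged, its log2 difference was 0.13 and did not pass (limma adjusted p = 0.319). In that fit, which held named genes alone, eif2s2.S rose and eif4enif1.L fell. Both have 1 probe set, so their differences were unchanged. Across all alternatives the limma adjusted p of eif4b.S spanned 0.0165 to 0.319.

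The other helicase activator, eif4h.S, had signals of 8086, 9263 and 10104 (lowest, median, highest) in Nkx2-5+GFP embryos, against 6336, 7541 and 8999 in GFP embryos. The 1.23-fold difference did not pass (limma adjusted p = 0.0667), and the groups overlapped between 8086 and 8999. Both copies of the helicase gene eif4a1 were above 0 without passing, eif4a1.L by 0.30 (limma adjusted p = 0.114) and eif4a1.S by 0.17 (limma adjusted p = 0.282). A probe set that names both copies of eif4a1 differed by 0.08 (limma adjusted p = 0.691). The related eif4a2.L differed by 0.21. eif4a3.1.S, whose mammalian product is the helicase of the exon junction complex, differed by 0.12, with 24667 ± 2205 in Nkx2-5+GFP embryos and 22640 ± 1390 in GFP embryos (SD, n = 6 each).

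Among the scaffolds, eif4g1.S had signals of 1551, 1949 and 2607 in Nkx2-5+GFP embryos, against 1315, 1618 and 1805 in GFP embryos. Nkx2-5+GFP embryo 5 lay within the range of the controls, and the log2 difference of 0.31 did not pass (limma adjusted p = 0.113). eif4g2.S, whose mammalian product lacks the eIF4E binding site, differed by 0.09 and eif4g3 by 0.08, and neither passed. The cap-binding proteins ran in both directions. eif4e1b.S, which encodes a form of eIF4E known from oocytes, was at 509 ± 113 in Nkx2-5+GFP embryos and 399 ± 67.2 in GFP embryos (SD, n = 6 each), a difference of 0.33 that did not pass (limma adjusted p = 0.222). eif4e3.L, which encodes a divergent cap-binding protein, had the lowest value of the group at -0.43 (SE 0.18, limma adjusted p = 0.152). Its signals were 193, 305 and 371 in Nkx2-5+GFP embryos, against 284, 408 and 538 in GFP embryos, so the groups overlapped. eif4e3.S differed by -0.12 and eif4e2.L, whose mammalian product is the cap-binding repressor 4EHP, by -0.08.

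**Figure D2:**
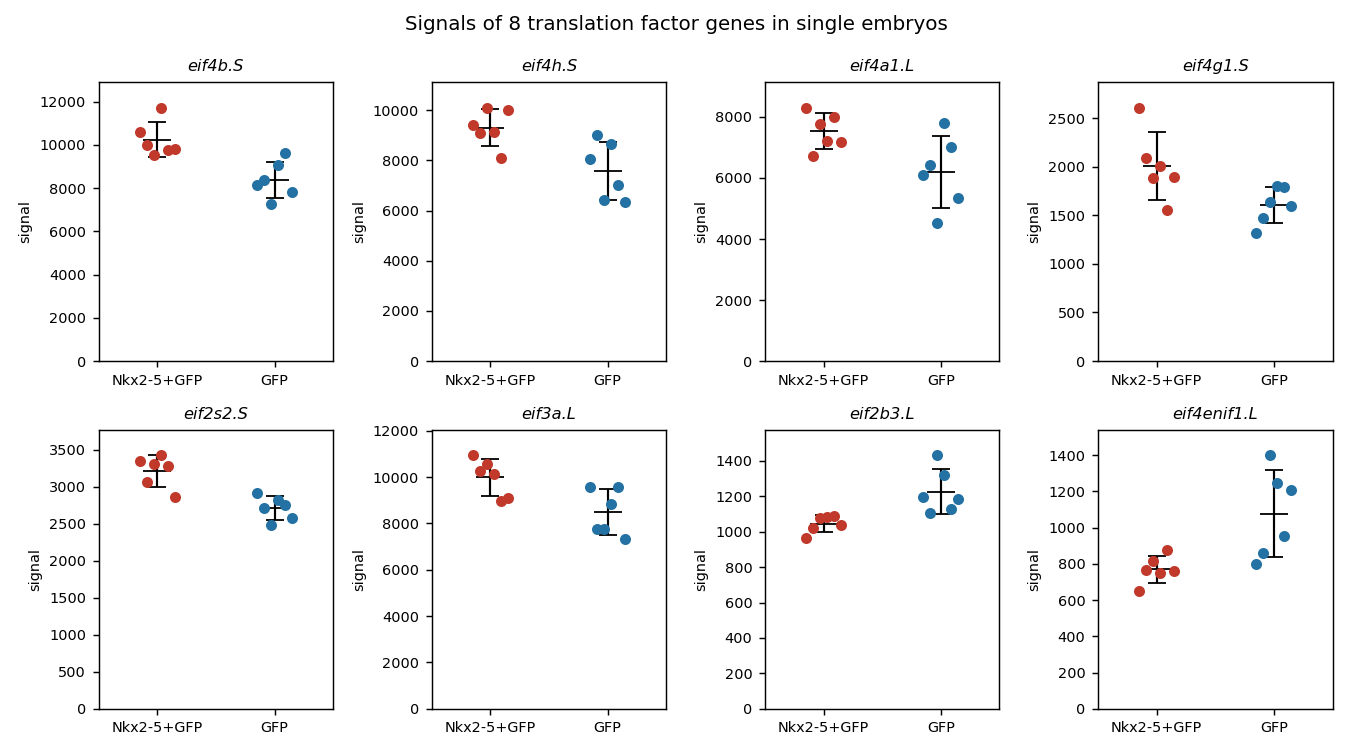
Signal in each embryo (vertical axis, linear, from 0) of 8 genes, with Nkx2-5+GFP embryos left and GFP embryos right; bars give the mean and SD of 6 embryos. The Nkx2-5+GFP embryos of eif4b.S sit between 9519 and 11717, and the groups of eif2b3.L are the pair that does not overlap.

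eIF2 is a trimer that carries the initiator tRNA, and eIF2B recharges it with GTP. Their genes, 8 measured with eif2a.S, had 0 that rose or fell, a median log2 difference of 0.10 and 6 above 0, and 2 stood at an unadjusted p under 0.05. eif2s2.S, the S copy of the gene for the beta subunit of eIF2, had signals of 2861, 3299 and 3426 in Nkx2-5+GFP embryos, against 2482, 2736 and 2921 in GFP embryos. Nkx2-5+GFP embryo 6 was the one that lay within the control range. The 1.18-fold difference just missed the threshold (log2 difference 0.24, SE 0.07, limma adjusted p = 0.0536, exact permutation p = 0.00433). It passed without the dimmer probe sets, with quantile normalization and without Nkx2-5+GFP embryo 6. It also passed in the fit that averaged the probe sets of each gene, though eif2s2.S has 1 probe set and its difference was unchanged. Its limma adjusted p spanned 0.0367 to 0.126.

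The L copy of the beta subunit gene, eif2s2.L, had a log2 difference of 0.12 (SE 0.09). This copy and the genes of the other eIF2 subunits were closer to 0 than eif2s2.S. eif2s1.S, which encodes the alpha subunit whose phosphorylation restrains initiation, differed by 0.05, and the gamma subunit gene eif2s3.S, at 5820 ± 626 in Nkx2-5+GFP embryos and 5333 ± 755 in GFP embryos (SD, n = 6 each), by 0.13. eif2a.S encodes a separate tRNA-binding factor and differed by 0.11.

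eIF2B ran in both directions. eif2b3.L, which encodes its gamma subunit, had signals of 963, 1058 and 1088 in Nkx2-5+GFP embryos, against 1103, 1188 and 1430 in GFP embryos. Every Nkx2-5+GFP embryo was thus lower than every GFP embryo. Such a separation fixes the exact permutation p at 0.00216, the smallest that 924 assignments can give, so this p adds nothing to it. In the fit over all probe sets the log2 difference of -0.22 did not pass (SE 0.09, limma adjusted p = 0.125). eif2b2.L (beta subunit) differed by 0.10 and the dim eif2b4.L (delta subunit), at 78.1 ± 22.7 in Nkx2-5+GFP embryos and 90.0 ± 38.1 in GFP embryos (SD, n = 6 each), by -0.13.

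eIF3 is the large multi-subunit scaffold of the 40S ribosomal subunit. Of its 13 measured genes, 0 rose and 0 fell, and 12 were above 0, of which eif3j.S turned to -0.11 with quantile normalization, with a median log2 difference of 0.15. The group's median stayed between 0.12 and 0.20 over the alternatives. eif3a.L, the gene of the largest core subunit, had signals of 8964, 10177 and 10931 in Nkx2-5+GFP embryos, against 7338, 8290 and 9590 in GFP embryos. GFP embryos 1 and 5 stood above Nkx2-5+GFP embryos 5 and 6, and the log2 difference of 0.24 did not pass (SE 0.08, limma adjusted p = 0.0896). The S copy, eif3a.S, was dim, between 10.5 and 81.5 in Nkx2-5+GFP embryos and between 7.01 and 30.4 in GFP embryos, and its difference of 0.32 carries an interval from -0.35 to 0.99.

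The gene of the cap-binding subunit, eif3d.S, had signals of 18976, 21114 and 21723 in Nkx2-5+GFP embryos, against 17062, 19280 and 20953 in GFP embryos, a difference of 0.13 that did not pass (limma adjusted p = 0.215). Nkx2-5+GFP embryo 5 gave the low value of its group. eif3e.L and eif3m.S, which encode subunits of the PCI family, differed by 0.19 and 0.16, and eif3b.L, the gene of a core subunit, by 0.18. eif3g.L differed by 0.23, eif3k.L and eif3i.L by 0.15 each, eif3l.L and eif3g.S by 0.07 each, and the loosely attached subunit's gene eif3j.S by 0.01. eif3c.S was the member below 0, at -0.09, with 2582 ± 418 in Nkx2-5+GFP embryos and 2742 ± 416 in GFP embryos (SD, n = 6 each).

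Factors of start-site choice and subunit joining had the median nearest to 0 among the groups of initiation factors. Of 5 measured genes 0 rose, 0 fell and 5 did not pass, and the median log2 difference of 0.08 turned to -0.01 with quantile normalization. eif1b.L, which encodes a close relative of the start-codon fidelity factor eIF1, had signals of 19236, 20249 and 22033 in Nkx2-5+GFP embryos, against 18230, 19095 and 20238 in GFP embryos. Its difference of 0.09 did not pass (limma adjusted p = 0.333) and was -0.03 with quantile normalization. eif5.S, the gene of the GTPase activator of eIF2, differed by 0.12, with 9334 ± 888 in Nkx2-5+GFP embryos and 8565 ± 592 in GFP embryos (SD, n = 6 each). eif6.S, whose product keeps the large subunit from joining early, differed by 0.08, eif1b.S by 0.05 (-0.01 with quantile normalization) and eif1ad.L, which encodes a protein with an eIF1A-like domain, by -0.05.

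The eEF1A genes are taken by form, since the frog has a somatic form and forms named for the oocyte. None of the 4 passed. The somatic eef1a1.S had signals of 36403, 38143 and 42313 in Nkx2-5+GFP embryos, against 32459, 36967 and 39599 in GFP embryos. The groups overlapped, and the log2 difference was 0.07 (SE 0.06, limma adjusted p = 0.523). This probe set was near the top of the scale, as the highest signals of the arrays lay between 37869 and 46292. A second eef1a1.S probe set, at 5187 ± 1047 in Nkx2-5+GFP embryos and 3974 ± 1181 in GFP embryos (SD, n = 6 each), differed by 0.42, which did not pass either (limma adjusted p = 0.173).

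The oocyte form eef1a1o.S had signals of 25923, 28595 and 29601 in Nkx2-5+GFP embryos, against 23743, 24407 and 28070 in GFP embryos. GFP embryo 4 was the control that reached into the range of the Nkx2-5+GFP embryos. The log2 difference of 0.16 did not pass (SE 0.06, limma adjusted p = 0.0983, exact permutation p = 0.00866). The L copy, eef1a1o.L, was at 10059 ± 1111 in Nkx2-5+GFP embryos and 9997 ± 1025 in GFP embryos (SD, n = 6 each), a difference of 0.01 that turned to -0.07 with quantile normalization. eef1a2.S, whose mammalian counterpart is the form of muscle and neurons, was dim at 59.5 ± 28.2 in Nkx2-5+GFP embryos and 38.6 ± 27.3 in GFP embryos (SD, n = 6 each). Its difference of 0.51, the largest of the 57, has an interval from -0.14 to 1.16.

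Whether the oocyte and somatic forms responded differently was tested on the difference of log2 values within each embryo, eef1a1o.S minus eef1a1.S. It was -0.46 ± 0.11 in Nkx2-5+GFP embryos and -0.56 ± 0.12 in GFP embryos (SD, n = 6 each). The shift between groups of 0.10 did not pass (2-sided exact permutation p = 0.180). Nkx2-5+GFP embryo 2 was the lowest of its group at -0.67. Without that embryo the shift was 0.14 (exact permutation p = 0.0433), while without each of the other 11 embryos in turn p stayed above 0.05. When all probe sets of each form were averaged, L and S copies of the oocyte form included, the shift had the opposite sign at -0.16 (exact permutation p = 0.290). Against the dimmer eef1a1.S probe set alone, a choice made after seeing the data, it was -0.25 (exact permutation p = 0.247). The direction of the shift thus depended on the probe sets taken for each form. The L copy eef1a1o.L differed by 0.01, below the 0.07 of the brighter eef1a1.S probe set. That eef1a1.S probe set is near the top of the scale, and whether this compresses its difference was not tested. Of 10 genes of a list of maternal and oocyte markers, 10 were below 0 and 2 fell, with a median log2 difference of -0.25. Of all probe sets, 47.7% were above 0 and 3.26% were called lower. The 10 include both copies of btg4 and of pabpc1l, and the listed velo1, zp3 and cpeb1 had no named probe set. The summed signal of the 10 was 15577 to 20885 in Nkx2-5+GFP embryos and 17078 to 24225 in GFP embryos, and its part in the eef1a values was not tested.

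**Figure D3:**
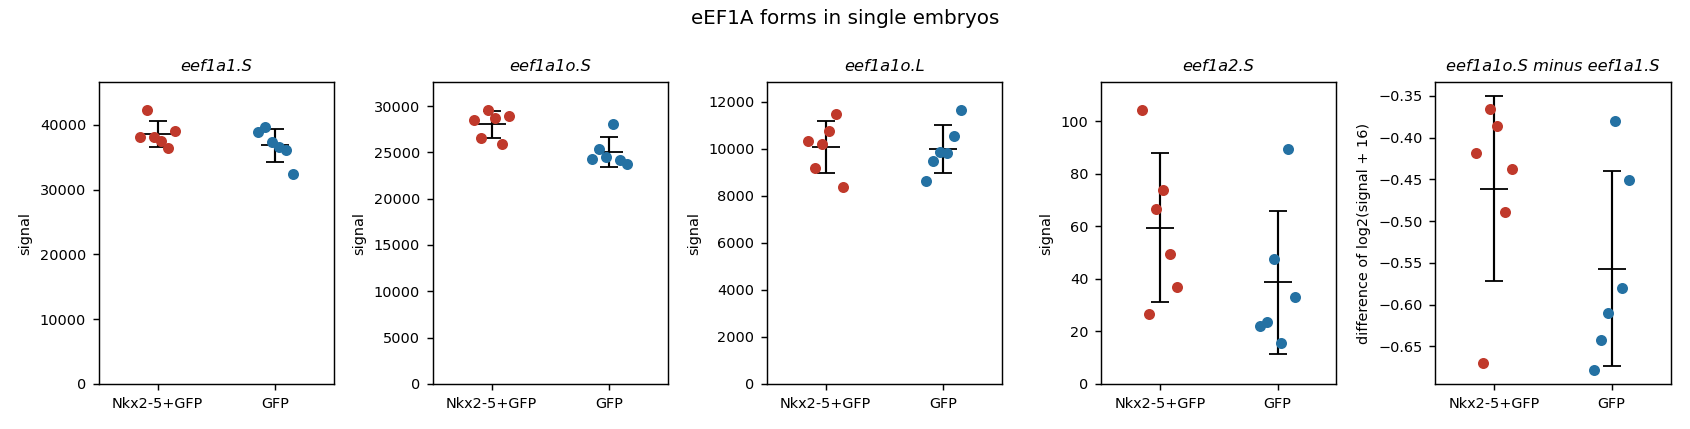
Signals of the 4 eEF1A genes in single embryos (vertical axes linear and from 0), and in the last panel the within-embryo difference of log2(signal + 16), oocyte eef1a1o.S minus somatic eef1a1.S; bars give the mean and SD of 6 embryos, Nkx2-5+GFP left and GFP right. The groups overlap in each panel.

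The remaining elongation factors did not pass. eEF1B is the complex that recharges eEF1A with GTP, and of its genes and those of a partner, 6 measured, 4 were above 0, with a median log2 difference of 0.06. eef1b2.L, the gene of the exchange subunit, had signals of 7506, 7829 and 8609 in Nkx2-5+GFP embryos, against 5641, 7110 and 8493 in GFP embryos. The control group was the wider one, and the difference of 0.18 did not pass (limma adjusted p = 0.259). The second exchange subunit's gene differed by 0.21 in its S copy, eef1d.S, and by -0.10 in its L copy, eef1d.L. A probe set that names both copies of eef1d differed by -0.15 (limma adjusted p = 0.462). A dim second probe set of eef1d.L, at 54.7 ± 34.0 in Nkx2-5+GFP embryos and 61.6 ± 56.0 in GFP embryos (SD, n = 6 each), differed by 0.04. eef1g.L, the gene of the structural subunit, differed by 0.03 (-0.04 with quantile normalization), eef1g.S by -0.06 and eef1e1.L, whose mammalian product belongs to the multi-synthetase complex, by 0.09.

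eef2.1.L, the translocase gene, had signals of 11594, 14021 and 15177 in Nkx2-5+GFP embryos, against 10980, 12051 and 13695 in GFP embryos. Nkx2-5+GFP embryo 5 was the lowest of its group, and the 1.14-fold difference did not pass (log2 difference 0.18, SE 0.08, limma adjusted p = 0.157). Its other probe sets differed by 0.23 and 0.18. eif5a.L encodes the hypusine-bearing factor that helps ribosomes through stalling sequences. It was at 14847 ± 826 in Nkx2-5+GFP embryos and 13302 ± 1473 in GFP embryos (SD, n = 6 each), a difference of 0.16 that did not pass (limma adjusted p = 0.181), and its 4 other probe sets differed by -0.16 to 0.07.

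The 6 regulators had a median log2 difference of -0.08, with 2 above 0, and 0 passed. eif4enif1.L encodes the eIF4E transporter 4E-T, known for binding eIF4E in repressed mRNA particles, in frog oocytes among other cells. Its signals were 650, 761 and 878 in Nkx2-5+GFP embryos, against 799.5, 1080 and 1398 in GFP embryos. GFP embryos 1 and 2 lay within the Nkx2-5+GFP range, and the difference of -0.45 was the lowest of the 57 genes (SE 0.13, limma adjusted p = 0.0569, exact permutation p = 0.0108). It passed without the dimmer probe sets and without GFP embryo 1, GFP embryo 5 or Nkx2-5+GFP embryo 5. It also passed in the fit that averaged the probe sets of each gene, though eif4enif1.L has 1 probe set and its difference was unchanged. Its limma adjusted p spanned 0.0356 to 0.148. eif4ebp2.S, the gene of a 4E-binding protein that competes with eIF4G, differed by 0.05. The kinase genes eif2ak1.L and eif2ak2.L, known in mammals as the heme-regulated and the double-stranded RNA-activated kinase of eIF2, differed by -0.23 and -0.05 (the second 0.01 with quantile normalization), the first from a dim signal of 51.7 ± 26.3 in Nkx2-5+GFP embryos and 58.8 ± 9.80 in GFP embryos (SD, n = 6 each). The eEF1A methyltransferase genes eef1akmt1.S, at 1369 ± 134 in Nkx2-5+GFP embryos and 1332 ± 164 in GFP embryos (SD, n = 6 each), and eef1aknmt.S differed by 0.04 and -0.12.

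Many factors were high or low together in the same embryo. The share of the 51 factors that stood above their own mean of the 12 embryos was counted per embryo. It was 36, 40, 38, 42, 16 and 26 of 51 in Nkx2-5+GFP embryos 1 to 6, against 16, 19, 17, 15, 29 and 10 in GFP embryos 1 to 6. Nkx2-5+GFP embryo 5 thus resembled most controls in this count, and GFP embryo 5 had more factors above the mean than Nkx2-5+GFP embryos 5 and 6. For the 13 eIF3 genes the counts were 8, 13, 8, 12, 2 and 7 in Nkx2-5+GFP embryos, and 3, 4, 4, 2, 7 and 2 in GFP embryos. As a median over the 51 factors, the deviation ran from -0.07 to 0.16 in Nkx2-5+GFP embryos and from -0.15 to 0.05 in GFP embryos on the log2 scale. The median over all probe sets ran from -0.04 to 0.05 in Nkx2-5+GFP embryos and from -0.01 to 0.05 in GFP embryos.

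The calls depended on single embryos. Leaving out either embryo numbered 5 raised the count of all probe sets called. Leaving out any other embryo lowered it, to 285 at the lowest, without Nkx2-5+GFP embryo 1. Without GFP embryo 5, 3 of the 57 genes rose and 1 fell, and without Nkx2-5+GFP embryo 5 also 3 rose and 1 fell, while all probe sets called numbered 1484 and 1485 in place of 988. Without Nkx2-5+GFP embryo 6, which was high in some of the hybridisation controls, 1 rose and 0 fell, and that gene was eif2s2.S.

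**Figure D4:**
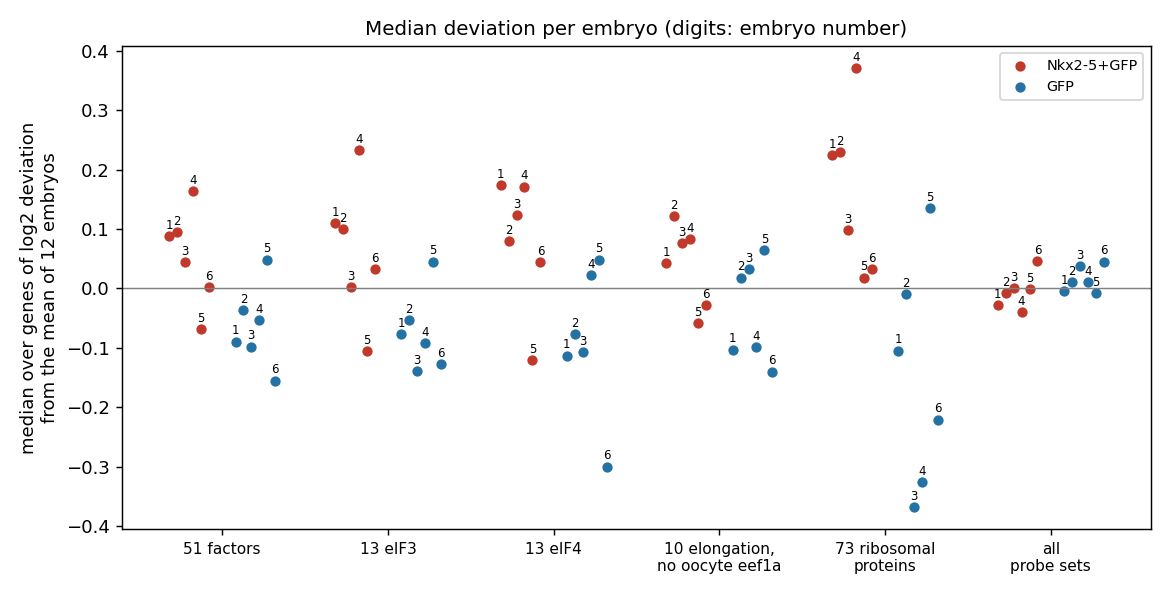
Median over the genes of a set of the log2 deviation from the mean of the 12 embryos (vertical axis), 1 point per embryo with its number, Nkx2-5+GFP left and GFP right within each set. For the 51 factors, Nkx2-5+GFP embryo 5 sits among the controls and GFP embryo 5 among the Nkx2-5+GFP embryos.

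The ribosomal protein genes, the partners of these factors on the ribosome, showed a larger shift. Of 73 measured genes 15 rose and 0 fell, or 20.5%, with a median log2 difference of 0.32 and 71 above 0. Among all probe sets, 6.38% were called and 47.7% were above 0. Per embryo, 70, 68, 60, 71, 40 and 42 of the 73 stood above their own mean in Nkx2-5+GFP embryos 1 to 6, against 19, 34, 2, 3, 65 and 5 in GFP embryos 1 to 6, so GFP embryo 5 exceeded Nkx2-5+GFP embryos 3, 5 and 6. In the same fit the median was 0.12 for the 51 translation factors and 0.10 for all 57 genes. The difference between these and the ribosomal protein genes was not tested. Mammalian ribosomal protein mRNAs share a terminal oligopyrimidine (TOP) start with some factor mRNAs, and 16 of the measured factors belong to a list of such genes known from human cells, eef1a1.S and eif4b.S among them. The list names eef2, and eef2.1.L was not counted with it because of its differing symbol. Of these 16, 1 rose and 0 fell, with a median of 0.14, and of the 35 other factors 0 rose and 0 fell, with a median of 0.12.

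Other genes of protein synthesis were counted from lists. Of 62 genes for poly(A)-binding proteins, termination and recycling factors, aminoacyl-tRNA synthetases, and modifiers with the TOR pathway, 1 rose, 0 fell and 61 did not pass, with a median log2 difference of 0.05 and 36 above 0. Of all probe sets, 6.38% were called and 47.7% were above 0. The gene that rose was rps6.S, a ribosomal protein gene of the TOR list, by 0.49 (SE 0.14, limma adjusted p = 0.0491), and its L copy rps6.L differed by 0.48 without passing (limma adjusted p = 0.0896). Both copies are also counted among the 73 ribosomal protein genes above. pabpc4.L, a poly(A)-binding protein gene, had the largest difference of these lists at 0.71 (limma adjusted p = 0.067), with 187 ± 66.2 in Nkx2-5+GFP embryos and 107 ± 29.4 in GFP embryos (SD, n = 6 each). abcf1.L, whose mammalian product binds eIF2, differed by -0.45 (limma adjusted p = 0.0809). paip2b.L, which encodes a partner of poly(A)-binding protein, differed by 0.22 and dohh.L, which completes the hypusine of eIF5A, by -0.19, and neither passed. All 7 termination and recycling genes were above 0, with a median of 0.11, and the 24 synthetase genes had a median of 0.04 with 15 above 0.

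Xenopus laevis carries many genes in a pair of copies, the homeologs, whose symbols end in L or S, and both were measured for 9 of the factor genes. Whether the copies responded differently was tested on the L minus S difference within each embryo, over all 1017 such pairs of the array. Of the 9 factor pairs 0 passed (limma, and 0 at an unadjusted p under 0.05), where 0.885% of all pairs did. The pair of smallest p was eef1d, with a shift of L against S of -0.32 (SE 0.18, 95% interval -0.69 to 0.06, limma adjusted p = 0.366). For eef1a1o the shift was -0.16 with an interval from -0.37 to 0.06, and for eif4e3 it was -0.31 with an interval from -0.75 to 0.13. Each of these intervals includes 0 and also larger shifts than those seen, down to -0.75 for eif4e3. That 0 pairs passed thus does not show that the copies responded alike.

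**Figure D5:**
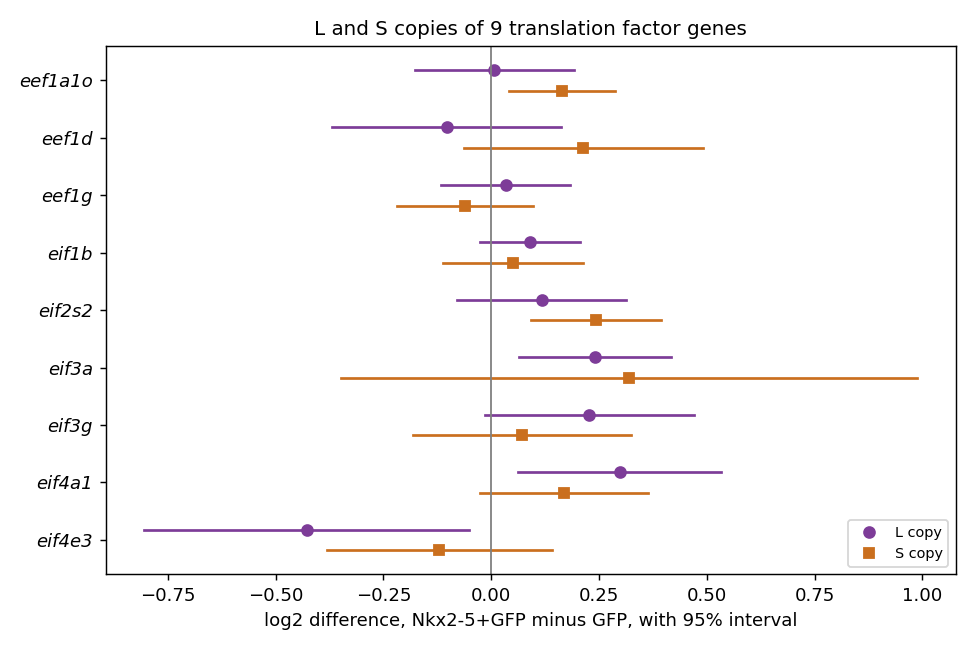
Log2 difference, Nkx2-5+GFP minus GFP, with its 95% interval (horizontal axis), of the L copy (circle) and the S copy (square) of 9 genes. The intervals of L and S overlap in each pair.

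For 16 of the 57 genes the array holds 23 further probe sets. Of these 0 were called, 20 had the sign of the probe set used and 3 the opposite sign, which were those of eef1d.L, eif4b.S and eif5a.L given above. Another 5 probe sets name a pair of genes, such as both copies of eif3g, and were left out of the 57. Their log2 differences ran from -0.15 to 0.20, and 0 were called.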

How the data were processed

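Signals of 12 arrays, 1 embryo each, were taken from the deposited intensity table, which the submitters' processing notes credit to MAS5; no version or scaling target is named in what was used here. After trimming 2% at either end, the mean signal was 1000.1 on every array. Left out were 120 manufacturer's controls, and 15491 probe sets were tested, with no filter and no further scaling. Groups came from the source names. Signals were transformed as log2(signal + 16), a scale on which changes of dim probe sets are understated, and fitted with limma 3.58.1 in R 4.3.3 (lmFit, eBayes with intensity trend, 2-sided). Homeolog pairs were fitted the same way. Single values had a 2-sided exact permutation test over 924 assignments. Plots used matplotlib 3.10.9.

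Gene names come from the array's annotation, updated by gene number with a RefSeq table of Xenopus_laevis_v10.1, which matched 9227 of 9304 probe sets with 1 gene; 195 name several genes and 5992 are unnamed here. Probe sets ending in s_at, x_at or a_at can detect more than 1 transcript. The members and lists were chosen with earlier results of these data known. The rule for named genes takes called members, all eEF1A and eEF2 genes, in each functional group the member of highest signal, largest difference and smallest p, and probe sets of opposite sign; the others are accounted for by their difference. The comparison of eif4e1b with eif4e was not run, as no probe set used here is named for eif4e. The fit was tested on simulated data.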

Additional observations from a re-analysis of the deposited data

Results flagged for a closer look

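In 4 cases of 114 groups of 6 embryos examined (57 genes in each group), 1 embryo lay far from the other 5. This was judged by the gap to its neighbour relative to the range of the group. Chance alone gives about 1 in 20, so 4 cases of 114 are not more than chance gives. eif4a3.1.S in Nkx2-5+GFP embryo 5 had a signal of 20289, with the other 5 between 24909 and 26328. eif3d.S in the same embryo had a signal of 18976, with the others between 20977 and 21723. eef1d.S in Nkx2-5+GFP embryo 6 had a signal of 881, with the others between 522 and 627. This embryo was also high in some of the hybridisation controls. eif2s1.S in GFP embryo 3 had a signal of 3869, with the others between 4364 and 4604.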

How the results depend on the processing

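The count of all probe sets called was 988. It was 437 without the intensity trend, 203 with the beta-actin ratio as a covariate, and 285 to 1485 when 1 embryo was left out. Of the 57 genes, 1 rose and 0 fell. Without the dimmer probe sets, which left 49 genes, 3 rose and 1 fell. At an adjusted p under 0.1, 5 rose and 1 fell. With the mean of all probe sets of a gene 1 rose and 1 fell, both of them genes with 1 probe set. Without the trend 0 rose by limma (10 genes at an unadjusted p under 0.05 in either direction), and with the beta-actin ratio 0 rose (8 genes likewise). Leaving out 1 embryo gave 0 to 3 that rose and 0 to 1 that fell. The factor homeolog pairs called remained 0 in each alternative run. The shift of eef1a1o.S against eef1a1.S was 0.0714 to 0.138 over the embryos left out, and it was reversed at -0.16 with the mean of all probe sets of each form and at -0.25 against the dimmer eef1a1.S probe set, an alternative chosen after seeing the data. With the replicate number as a block, 779 probe sets were called, 1 of the 57 genes rose, 0 fell, and the eef1a shift stayed at 0.10 (2-sided exact sign-flip p = 0.188). Deviations of same-numbered embryos correlated at -0.15 to 0.13, and 3 of the 6 numbers correlated best with their own partner. These values do not settle whether the numbers mark pairs. The labels do not say that a number marks shared parents or a day, so the main fit did not use it. The median over the 57 genes stayed between 0.08 and 0.15, and that of all probe sets between -0.03 and 0.03. Of the 57 genes, 14 changed sign in at least 1 alternative, and 0 of these 25 sign changes involved a gene called before or after. With quantile normalization they were eef1a1o.L at -0.068, eef1g.L at -0.0413, eif1b.L at -0.026, eif1b.S at -0.00637, eif2ak2.L at 0.0106, eif3j.S at -0.105 and eif4g2.S at -0.0133. With array median scaling it was eif2ak2.L at 0.00506. With the beta-actin ratio they were eef1a1o.L at -0.0412, eif2b4.L at 0.0868 and eif4ebp2.S at -0.00288. Over the embryos left out the differences ran for eef1a1o.L from -0.0337 to 0.0588, eef1akmt1.S from -0.00389 to 0.0878, eif1ad.L from -0.0891 to 0.00133, eif2a.S from -0.0103 to 0.213, eif2ak2.L from -0.111 to 0.00319, eif2b4.L from -0.235 to 0.00231, eif3j.S from -0.0103 to 0.0435, eif4e2.L from -0.168 to 0.0133 and eif4g3 from -0.00433 to 0.15. The causes were not tested. The planned comparison of eif4e1b with eif4e was not run. Dim genes such as eef1a2.S and eif3a.S carry intervals too wide to read.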
